A study of Mus musculus with 6 samples.

Results

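The transcripts of 10 genes for presynaptic active zone scaffolds were examined in ribosome-associated RNA from mPFC D2 neurons with and without a Gsk3b sgRNA. The genes were Bsn, Pclo, Rims1, Rims2, Rims3, Unc13a, Unc13b, Erc1, Erc2 and Rimbp2, chosen by name from a table of 115220 transcripts of 47729 genes. They had 65 listed transcripts, of which 28 had a mean of at least 1 FPKM, 37 were under 1 FPKM and 6 of those were at 0 in all libraries. FPKM, the fragments per kilobase of transcript scaled to the mapped fragments of the library, is a level per length. The gene total used below is the sum of the FPKM of a gene's listed transcripts.

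All libraries came from adult male D2Cre/LSL-Flag-Cas9/RiboTag mice of a C57BL/6 strain, injected at 2.5 to 3 months of age, with mPFC tissue taken 3 weeks after AAV injection. Both groups carried the D2Cre bacterial artificial chromosome transgene, whose D2 receptor promoter turns on Flag-Cas9 and the hemagglutinin-tagged ribosomal subunit of the RiboTag allele. The 3 Ctrl libraries came from mice that received AAV GFP, and the 3 Gsk3sKO libraries (Gsk3sKO in mPFC D2) from mice that received AAV Gsk3sgRNA/GFP. The tag pulls down the ribosomes of every Cre-expressing cell in the tissue, whether or not it took up virus, and the sources do not say whether a library is 1 mouse or a pool. A p-value therefore measures the spread between libraries only, and fewer cells of a type cannot be told apart from less RNA per cell.

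The active zone is the patch of presynaptic membrane where synaptic vesicles dock, are primed and fuse. Bassoon and Piccolo are very large, related scaffold proteins that cluster vesicles there, RIM proteins tie vesicles carrying Rab3 to Munc13 proteins and calcium channels, and Munc13 proteins prime vesicles by opening syntaxin-1. ELKS proteins, encoded by Erc1 and Erc2, are coiled-coil partners of RIM and Bassoon, and RIM-binding proteins such as RIM-BP2 connect RIM to calcium channels through SH3 domains.

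Several members are divided between transcripts that share long stretches of sequence, and the levels of those transcripts moved between libraries far more than the gene totals did. Some of the exons that separate the main transcripts are therefore shown first, as GENCODE M21 transcript sequence on GRCm38. Most of these transcripts also differ elsewhere. Capitals mark the exon, and lower-case letters are the 15 flanking bases of the mature transcript on each side.

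The Unc13a exon of 57 bases, present in Unc13a-208 alone, lies at chr8:71633439-71633495 on the minus strand. It is the only stretch of Unc13a-208 that the more abundant Unc13a-201 lacks, whereas Unc13a-201 holds 4658 bases that Unc13a-208 lacks.
Unc13a-208: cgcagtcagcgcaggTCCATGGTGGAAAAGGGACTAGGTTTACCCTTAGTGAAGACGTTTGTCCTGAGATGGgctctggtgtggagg
The Pclo exon of 68 bases in Pclo-201, at chr5:14817267-14817334 on the plus strand, belongs to the long 3′ extension that Pclo-202 does not have. Its length is not a multiple of 3, whereas that of the exon of 39 bases private to Pclo-204, at chr5:14718818-14718856, is.
Pclo-201: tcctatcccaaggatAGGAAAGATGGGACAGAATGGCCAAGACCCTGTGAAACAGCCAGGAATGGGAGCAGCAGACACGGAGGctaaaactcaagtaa
Pclo-204: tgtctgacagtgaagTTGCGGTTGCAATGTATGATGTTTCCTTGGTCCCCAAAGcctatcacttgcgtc
The Rims1 exon of 72 bases separates Rims1-203 from Rims1-206 and lies at chr1:22404444-22404515 on the minus strand. Rims2-201 and Rims2-202 each hold coding exons that the other lacks, and one of each is shown, of 66 bases at chr15:39517806-39517871 and of 33 bases at chr15:39274976-39275008, both on the plus strand.
Rims1-203: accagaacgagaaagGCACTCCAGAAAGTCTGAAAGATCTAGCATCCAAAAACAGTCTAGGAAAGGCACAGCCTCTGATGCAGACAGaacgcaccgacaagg
Rims2-201: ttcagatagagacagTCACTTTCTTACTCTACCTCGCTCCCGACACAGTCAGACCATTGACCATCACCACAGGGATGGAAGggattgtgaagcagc
Rims2-202: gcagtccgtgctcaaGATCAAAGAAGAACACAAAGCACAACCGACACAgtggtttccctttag
The Erc1 exon of 84 bases in Erc1-203, at chr6:119777988-119778071 on the minus strand, is absent from Erc1-211. A second Erc1 exon, of 67 bases at chr6:119618846-119618912, is in Erc1-211 and not in Erc1-203. It carries an in-frame stop after 24 bases, and only the bases up to that TAG are printed, without the flank behind them.
Erc1-203: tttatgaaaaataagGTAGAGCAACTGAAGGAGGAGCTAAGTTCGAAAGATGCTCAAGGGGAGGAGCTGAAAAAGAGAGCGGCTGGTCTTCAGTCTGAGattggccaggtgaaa
Erc1-211: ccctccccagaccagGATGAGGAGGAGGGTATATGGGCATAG
For Rims3, the line shows 30 bases of an exon shared with Rims3-201 in lower case and the first 30 of the 1228 bases by which Rims3-203 runs on past that exon in capitals, at chr4:120883187-120883246 on the plus strand. The run-on opens with GT, the bases with which introns usually begin.
Rims3-203: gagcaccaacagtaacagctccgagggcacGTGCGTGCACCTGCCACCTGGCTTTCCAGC

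The spacing of low FPKM values put the depth at roughly 23.5 to 45.2 M fragments a library in Ctrl and 28.8 to 41.4 M in Gsk3sKO, an approximate figure, since only 27.6% to 44.6% of those values fell within 0.05 of a whole read. At that depth a member total rested on about 520 fragments (Rims3) to 43375 fragments (Bsn) a library. The targeted gene, Gsk3b, had a gene total of 35.6, 53.8 and 56.5 FPKM across the Ctrl libraries and 36.9, 37.0 and 33.6 FPKM across the Gsk3sKO libraries (here and below in the order of replicates 1 to 3), so that the groups overlapped through Ctrl replicate 1 (log2 fold change -0.40, adjusted p = 0.773). Its main transcript, ENSMUST00000023507, was lower in all 3 Gsk3sKO libraries, at 24.8, 21.6 and 21.2 FPKM against 33.5, 34.7 and 36.2 FPKM (log2 fold change -0.61, unadjusted p = 0.00448, adjusted p = 0.619). These RNA levels do not measure protein. The paper assessed the knockout in mPFC D2 neurons by GSK3β protein staining, in D2Cre/LSL-Flag-Cas9 mice without RiboTag, and found most of those cells devoid of signal. Drd2 was present in every library, between 1.58 FPKM (Ctrl replicate 1) and 14.1 FPKM (Ctrl replicate 3), and 0 of 5 D2 and striatal projection neuron markers passed an unadjusted p of 0.05. Their summed level was 108 to 338 FPKM in Ctrl and 159 to 317 FPKM in Gsk3sKO, beside sums of 881 to 999 and 840 to 1046 FPKM for 5 excitatory neuron markers and of 990 to 1318 and 935 to 1029 FPKM for 6 inhibitory neuron markers. Of 5 oligodendrocyte markers, Mog, Mag and Cnp were lower at an unadjusted p under 0.05, with a summed level for the list of 97.7 to 153 FPKM in Ctrl and 98.5 to 141 FPKM in Gsk3sKO, and 2 Gsk3sKO libraries listed Mog at 0. Among the other markers 1 of 5 excitatory markers (Tbr1) was lower, and 0 of 6 inhibitory, 0 of 5 astrocyte, 0 of 4 tested microglia and 0 of 5 endothelial markers passed. The part of these differences in the results below was not tested.

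At the level of gene totals, no active zone scaffold gene passed the test between Ctrl and Gsk3sKO. With limma, 0 of 10 members had an unadjusted p under 0.05, against 6.56% of all 12874 gene totals tested, and their adjusted p ran from 0.790 to 0.977, where 0.0466% of all gene totals were under 0.05. The groups overlapped in each of the 10 members, while 12% of all gene totals had groups that did not. The members were split evenly, 5 higher and 5 lower in Gsk3sKO, with a median log2 fold change of 0.04 beside -0.06 over all gene totals tested. The standard error of a member's log2 fold change was 0.13 to 0.25 with a median of 0.16, and the median over all gene totals tested was 0.25.

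**Figure D1:**
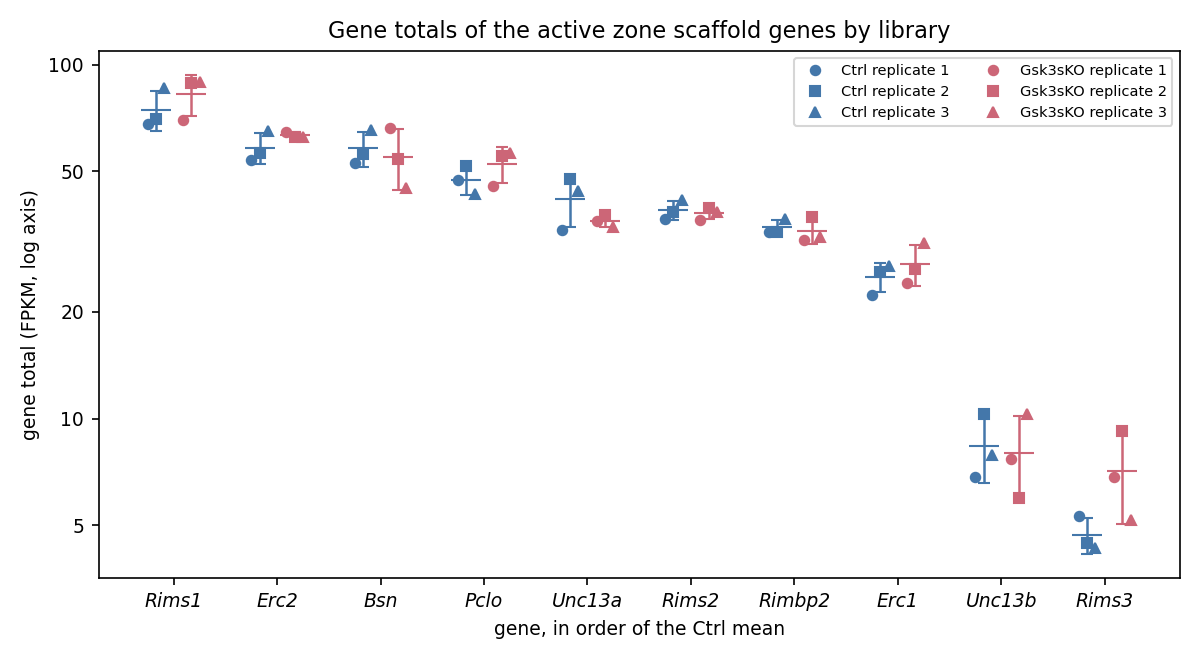
Gene totals in FPKM on a log axis for the 10 active zone scaffold genes, in order of their Ctrl mean, with each library as a point (3 Ctrl, blue, and 3 Gsk3sKO, red) and the mean with SD as bars. Rims1 is highest in all 6 libraries, Unc13b and Rims3 stand below the other 8 genes, and in each gene the ranges of the groups overlap.

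In Ctrl the genes fell in the order Rims1 (74.5 ± 9.75 FPKM, SD, n = 3), Erc2 (58.3 ± 5.81), Bsn (58.0 ± 6.60), Pclo (47.3 ± 4.397), Unc13a (41.8 ± 6.93), Rims2 (38.8 ± 2.42), Rimbp2 (34.7 ± 1.70), Erc1 (25.1 ± 2.40), Unc13b (8.34 ± 1.77) and Rims3 (4.68 ± 0.54). Neighbours whose Ctrl values overlapped were Erc2 and Bsn, Pclo and Unc13a, and Unc13a and Rims2, and the other neighbours did not overlap. Rims1 stood above 93.5% of all gene totals tested, Erc1 above 77.9%, Unc13b above 48.0% and Rims3 above 31.4%, where the median gene total was 8.89 FPKM. The place of Rims1 rests on how fragments of transcripts are summed, because its listed transcripts include short, incomplete ones. Weighting each transcript by its length put Erc2 (58.3 FPKM) and Bsn (55.2 FPKM) ahead of Rims1 (49.3 FPKM), and put Rims3 (4.16 FPKM) above Unc13b (3.55 FPKM).

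Bsn and Pclo, the giant scaffolds, were among the 4 highest totals. Bsn (ENSMUSG00000032589, chr9:108096022-108190384, minus strand) was at 52.8, 55.9 and 65.4 FPKM across the Ctrl libraries and 65.99, 54.0 and 44.7 FPKM across the Gsk3sKO libraries. The 3 Gsk3sKO libraries spanned the whole Ctrl range, and the log2 fold change was -0.09 (95% interval -0.49 to 0.30). Nearly all of it was Bsn-201, the full transcript of 12 exons, which made up 81.8% to 100% of the total. The short Bsn-202, incomplete at its start and lying wholly within Bsn-201, was listed at 0, 3.92 and 11.9 FPKM across the Ctrl libraries and 0.38, 0 and 0 FPKM across the Gsk3sKO libraries. One Ctrl library thus lacked it as well, and Bsn-201 alone differed by a log2 fold change of 0.04 (95% interval -0.37 to 0.44).

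Pclo (ENSMUSG00000061601, chr5:14514918-14863459, plus strand) was at 47.2, 51.8 and 43.0 FPKM across the Ctrl libraries and 45.5, 55.3 and 56.4 FPKM across the Gsk3sKO libraries, a log2 fold change of 0.14 (95% interval -0.19 to 0.47). Behind this steady total the transcripts changed places. Pclo-202, which ends before the 68-base exon shown above, was at 37.8, 40.0 and 29.9 FPKM across the Ctrl libraries and 0.42, 43.7 and 21.1 FPKM across the Gsk3sKO libraries. Pclo-201, the longer transcript of 25 exons, was at 1.27, 7.41 and 7.22 FPKM across the Ctrl libraries and 30.3, 1.26 and 26.9 FPKM across the Gsk3sKO libraries. Gsk3sKO replicates 1 and 3 were thus low in the first and high in the second, whereas Gsk3sKO replicate 2 resembled the Ctrl libraries, and neither transcript passed the test over all 6 libraries (log2 fold change -1.71, unadjusted p = 0.209, and 1.22, unadjusted p = 0.316). Without Gsk3sKO replicate 2, Pclo-202 was at -2.71 (unadjusted p = 0.0591) and Pclo-201 at 2.46 (unadjusted p = 0.0111), and without Gsk3sKO replicate 1 they were at -0.22 and 0.56 (unadjusted p = 0.549 and 0.662). These 2 transcripts share 14879 bases, 74.1% of Pclo-201, so that most of their sequence does not tell them apart. Pclo-204, incomplete at its start and sharing 99.3% of its bases with Pclo-202, was higher in every Gsk3sKO library, at 12.3, 9.995 and 8.28 FPKM against 8.06, 4.36 and 5.84 FPKM (log2 fold change 0.68, unadjusted p = 0.0525, adjusted p = 0.842). With a library left out its log2 fold change was 0.49 to 0.87, with an unadjusted p of 0.0248 without Ctrl replicate 1 and 0.0476 without Gsk3sKO replicate 3.

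Among the RIM genes, which encode the central scaffold that binds Rab3, Munc13 and calcium channels, Rims1 was the most abundant. Rims1 (ENSMUSG00000041670, chr1:22286251-22805724, minus strand) was at 67.8, 70.0 and 85.7 FPKM across the Ctrl libraries and 69.9, 88.8 and 89.2 FPKM across the Gsk3sKO libraries. Ctrl replicate 3 and Gsk3sKO replicates 2 and 3 were the high libraries, and the log2 fold change was 0.15 (95% interval -0.21 to 0.50). It was spread over more transcripts than any other member, with 7 of its 8 listed transcripts at a mean of at least 1 FPKM.

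Rims1-202, an annotated fragment with 14 exons from the 5′ part of the gene and no annotated end, was at 27.0, 27.2 and 25.4 FPKM across the Ctrl libraries and 19.2, 24.1 and 21.2 FPKM across the Gsk3sKO libraries. All 3 Gsk3sKO libraries were below all 3 Ctrl libraries (log2 fold change -0.30, unadjusted p = 0.0965, adjusted p = 0.849). The full-length Rims1-206, without the 72-base exon, moved the other way, at 14.8, 14.1 and 13.1 FPKM across the Ctrl libraries and 16.9, 17.5 and 20.9 FPKM across the Gsk3sKO libraries (log2 fold change 0.37, unadjusted p = 0.0705, adjusted p = 0.842). Rims1-203, with that exon, was at 20.8, 5.20 and 8.07 FPKM across the Ctrl libraries and 9.31, 7.39 and 12.6 FPKM across the Gsk3sKO libraries, with Ctrl replicate 1 far above the others. The short Rims1-207, with 6 exons at the 3′ end and no base in common with Rims1-202, was listed at 0, 6.93 and 24.2 FPKM across the Ctrl libraries and 11.4, 22.3 and 26.1 FPKM across the Gsk3sKO libraries. It ranged more widely within Ctrl than between the group means, and its log2 fold change of 1.77 (unadjusted p = 0.167) ran from 0.49 to 2.82 with a library left out, the last without Ctrl replicate 3 (unadjusted p = 0.0276).

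Rims2, whose protein overlaps with RIM1 in function, had the smallest change of the 10 members. The total of Rims2 (ENSMUSG00000037386, chr15:39198332-39681940, plus strand) was 36.7, 38.3 and 41.4 FPKM in Ctrl and 36.4, 39.3 and 38.4 FPKM in Gsk3sKO, a log2 fold change of -0.03 (95% interval -0.32 to 0.27). Rims2-201, with the 66-base exon, gave 85.9%, 59.6% and 65.8% of the total in Ctrl and 62.8%, 64.5% and 62.1% in Gsk3sKO, and Rims2-202 gave the rest. Ctrl replicate 1 stood apart in this division, and in the other 5 libraries the share of Rims2-201 was between 59.6% and 65.8%.

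Rims3, which encodes a short RIM that keeps only the C-terminal C2 domain, was the lowest member and the one with the largest difference. Rims3 (ENSMUSG00000032890, chr4:120854816-120896579, plus strand) was at 5.30, 4.44 and 4.31 FPKM across the Ctrl libraries and 6.83, 9.24 and 5.18 FPKM across the Gsk3sKO libraries. Gsk3sKO replicate 3 lay just below Ctrl replicate 1, and the log2 fold change of 0.48 (95% interval -0.08 to 1.04) had an unadjusted p of 0.0829 and an adjusted p of 0.790. With a library left out it ran from 0.30 without Gsk3sKO replicate 2 (unadjusted p = 0.275) to 0.66 without Gsk3sKO replicate 3 (unadjusted p = 0.0251).

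The transcript that runs on past a shared exon had higher values in Gsk3sKO, and the main coding transcript did not. Rims3-203 (ENSMUST00000132895, chr4:120854816-120884444, a processed transcript with 4 exons and no coding sequence) was at 0.33, 0.18 and 0.17 FPKM across the Ctrl libraries and 3.46, 4.41 and 0.89 FPKM across the Gsk3sKO libraries. Each Gsk3sKO library was above each Ctrl library, with Gsk3sKO replicate 3 the nearest to them. In limma this was a log2 fold change of 1.54 ± 0.52 (SE; unadjusted p = 0.0242, adjusted p = 0.842), on a scale of log2(FPKM + 1) that understates changes of low transcripts. With 0.1 added in place of 1 it was 2.98. The main coding transcript, Rims3-201, was at 4.86, 3.99 and 3.20 FPKM in Ctrl and 3.16, 4.16 and 2.18 FPKM in Gsk3sKO. The groups overlapped through Gsk3sKO replicate 2, while Gsk3sKO replicates 1 and 3 were below each Ctrl library (log2 fold change -0.28, unadjusted p = 0.414). Rims3-204, also annotated as protein coding but with a mean under 1 FPKM, was not in the main test. It was at 0.11, 0.25 and 0.94 FPKM in Ctrl and 0.22, 0.67 and 2.11 FPKM in Gsk3sKO. Summing coding transcripts alone, the Rims3 total had a log2 fold change of -0.09, and weighting transcripts by length gave 0.00.

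The make-up of Rims3 shows the same data as shares. Rims3-201 was 91.7%, 89.8% and 74.3% of the gene total in Ctrl and 46.2%, 45.0% and 42.2% in Gsk3sKO, and Rims3-203 was 6.28%, 4.12% and 3.84% in Ctrl and 50.7%, 47.7% and 17.1% in Gsk3sKO. Neither share overlapped between the groups, and each had an exact permutation p of 0.1, the smallest that 3 against 3 libraries allow. Rims3-203 passed an unadjusted p of 0.05 upwards together with 1.72% of the 1044 processed transcripts tested, a class in which the median log2 fold change was -0.15. Without Ctrl replicate 2, Ctrl replicate 3, Gsk3sKO replicate 1 or Gsk3sKO replicate 2 its unadjusted p was between 0.0603 and 0.0915.

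**Figure D2:**
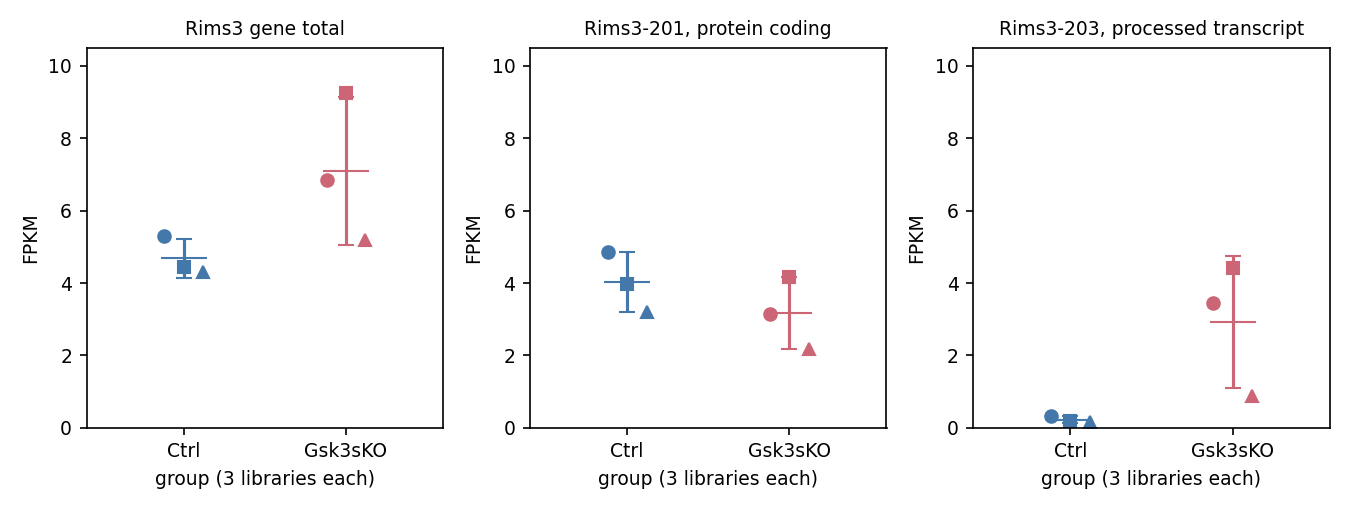
FPKM of the Rims3 gene total, of the main coding transcript Rims3-201 and of the processed transcript Rims3-203 in 3 Ctrl and 3 Gsk3sKO libraries, as points with mean and SD bars. Rims3-203 rises from 0.17 to 0.33 FPKM in the Ctrl libraries to 0.89 to 4.41 FPKM in the Gsk3sKO libraries, while the groups overlap for Rims3-201 and for the gene total.

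The Munc13 genes encode the priming factors that RIM recruits. Unc13a (ENSMUSG00000034799, chr8:71624417-71671757, minus strand), for Munc13-1, was at 34.0, 47.4 and 43.9 FPKM across the Ctrl libraries and 36.1, 37.6 and 34.9 FPKM across the Gsk3sKO libraries. The Gsk3sKO libraries were close together and below Ctrl replicates 2 and 3 but above Ctrl replicate 1, and the log2 fold change was -0.19 (95% interval -0.55 to 0.17). With a library left out it ran from -0.33 without Ctrl replicate 1 (unadjusted p = 0.0462) to -0.09 without Ctrl replicate 2 (unadjusted p = 0.622). The difference was nearly absent from length-weighted totals, with means of 33.5 FPKM in Ctrl and 33.0 FPKM in Gsk3sKO (log2 fold change -0.02, limma unadjusted p = 0.870). In the annotation, 495 bases of Unc13a exons overlap exons of Colgalt1, a gene on the opposite strand with a mean of 8.01 FPKM, and the sources do not state that counting used the strand.

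Unc13a also changed its make-up between libraries of the same group. Unc13a-201 was at 32.7, 25.8 and 17.1 FPKM across the Ctrl libraries and 33.9, 34.9 and 25.3 FPKM across the Gsk3sKO libraries. Unc13a-208, marked by the 57-base exon, was at 0.01, 19.1 and 24.8 FPKM across the Ctrl libraries and 0.14, 1.07 and 6.38 FPKM across the Gsk3sKO libraries. It was thus close to 0 in Ctrl replicate 1 and in Gsk3sKO replicate 1 and high in the other Ctrl libraries (log2 fold change -1.64, 95% interval -4.97 to 1.69). Leaving out a library moved this from -3.14 without Ctrl replicate 1 (unadjusted p = 0.0126) to -0.80 without Ctrl replicate 3 (unadjusted p = 0.612). The 2 transcripts share 99.0% of the bases of Unc13a-208, and that exon is all the sequence private to it. Unc13a-201 holds 4658 bases that Unc13a-208 lacks.

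Unc13b (ENSMUSG00000028456, chr4:43058953-43264871, plus strand), for Munc13-2, was the other low member, at 6.85, 10.3 and 7.87 FPKM across the Ctrl libraries and 7.67, 5.97 and 10.3 FPKM across the Gsk3sKO libraries. The groups covered nearly the same range, and the log2 fold change was -0.07 (95% interval -0.63 to 0.49). Of its 16 listed transcripts only Unc13b-216 reached a mean of 1 FPKM, at 4.72, 6.26 and 6.31 FPKM across the Ctrl libraries and 5.92, 5.54 and 7.09 FPKM across the Gsk3sKO libraries. It gave 60.7% to 92.8% of the total, and 5 of the others were at 0 in all libraries.

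The ELKS genes differed in how simply they were built. Erc2 (ENSMUSG00000040640, chr14:27622442-28478537, plus strand) had a single listed transcript, at 53.7, 56.4 and 64.8 FPKM across the Ctrl libraries and 64.7, 62.5 and 62.3 FPKM across the Gsk3sKO libraries. The Gsk3sKO libraries lay within the upper part of the Ctrl range, and the log2 fold change was 0.12 (95% interval -0.18 to 0.41). Erc1 (ENSMUSG00000030172, chr6:119570796-119848167, minus strand) was at 22.4, 26.0 and 26.9 FPKM across the Ctrl libraries and 24.2, 26.4 and 31.2 FPKM across the Gsk3sKO libraries (log2 fold change 0.11, 95% interval -0.25 to 0.47).

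Erc1 had 3 different leading transcripts over the 6 libraries. Erc1-211, annotated as a target of nonsense-mediated decay and with a reading frame ending at the TAG shown above, was at 2.94, 19.99 and 22.2 FPKM across the Ctrl libraries and 19.9, 21.95 and 8.57 FPKM across the Gsk3sKO libraries. Its annotated coding sequence has 2976 bases, beside 3360 in Erc1-203. Whether Erc1-211 is decayed or translated was not tested. Erc1-203, annotated as protein coding, was at 12.5, 2.16 and 2.17 FPKM across the Ctrl libraries and 1.28, 0.00 and 2.46 FPKM across the Gsk3sKO libraries. Erc1-206, also annotated as a decay target, was at 0.25, 1.94 and 1.38 FPKM across the Ctrl libraries and 1.49, 1.205 and 12.6 FPKM across the Gsk3sKO libraries. Ctrl replicate 1 was thus led by Erc1-203, Gsk3sKO replicate 3 by Erc1-206 and the other 4 libraries by Erc1-211. With transcripts annotated as protein coding alone, the log2 fold change of Erc1 was -0.36 (limma unadjusted p = 0.637), opposite in sign to the total of all transcripts. That sum leaves out Erc1-211 and Erc1-206 and includes the high Erc1-203 value of Ctrl replicate 1. Erc1-211 shares 75.9% of the bases of Erc1-203 and 99.7% of those of Erc1-206.

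Rimbp2 (ENSMUSG00000029420, chr5:128757791-128953486, minus strand), whose protein joins RIM to calcium channels, was one of the steadiest members, at 33.7, 33.6 and 36.6 FPKM across the Ctrl libraries and 31.9, 37.0 and 32.7 FPKM across the Gsk3sKO libraries. The log2 fold change was -0.04 (95% interval -0.34 to 0.27). Rimbp2-205 was at 7.13, 13.5 and 26.8 FPKM across the Ctrl libraries and 22.5, 25.0 and 10.1 FPKM across the Gsk3sKO libraries. Rimbp2-207, which starts at an exon farther upstream, was at 19.8, 3.32 and 2.91 FPKM across the Ctrl libraries and 8.67, 2.85 and 21.4 FPKM across the Gsk3sKO libraries. The second led in Ctrl replicate 1 and Gsk3sKO replicate 3, 1 library of each group, and the first in the other 4.

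**Figure D3:**
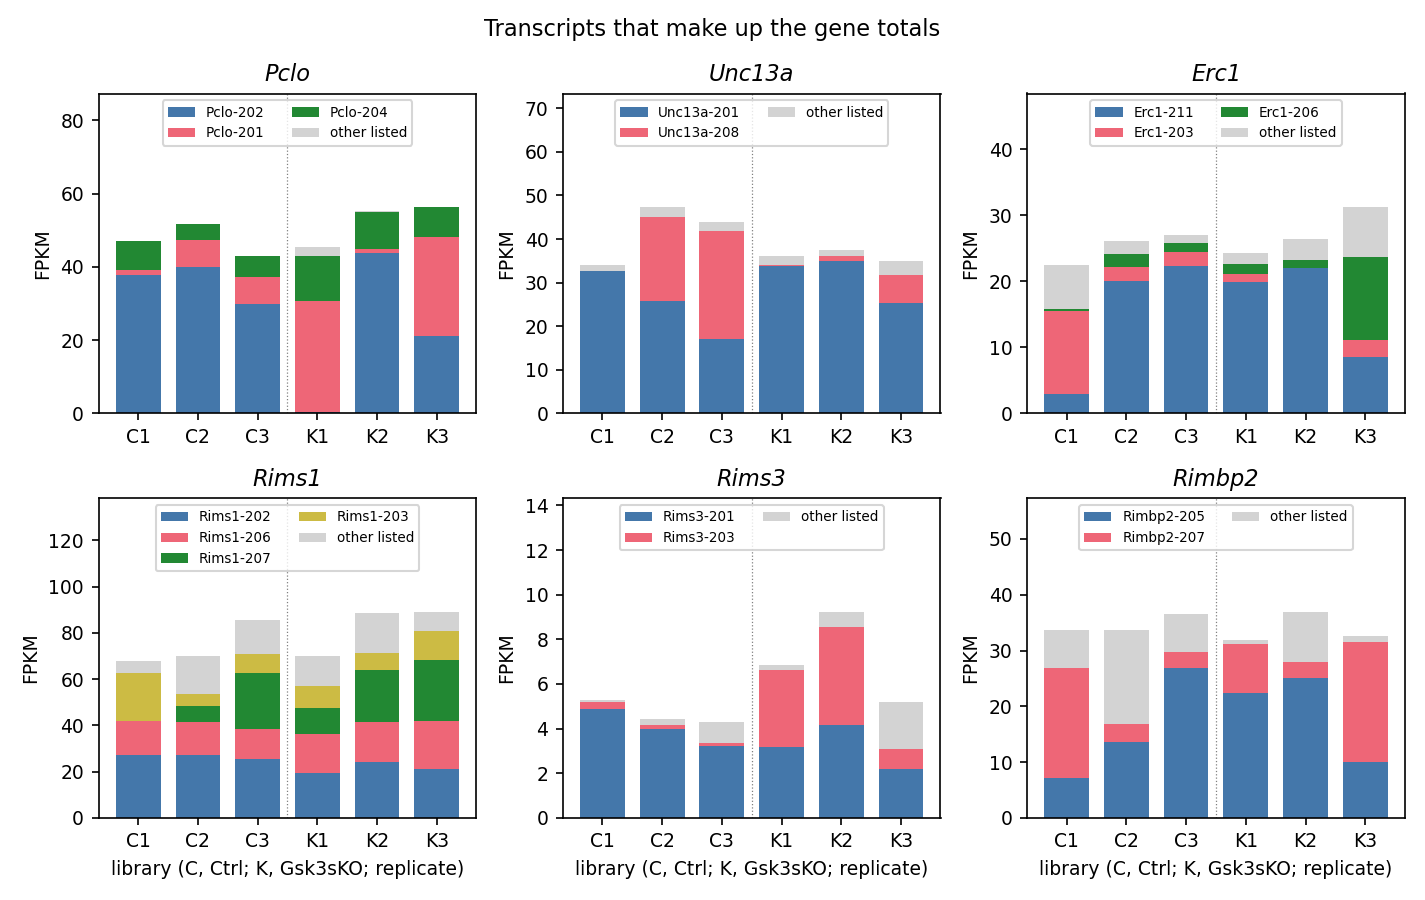
FPKM of the named transcripts stacked to the gene total for the 6 members whose leading transcript differed between libraries, with the remaining listed transcripts in grey (C1 to C3, Ctrl replicates; K1 to K3, Gsk3sKO replicates). Except in Rims3, where they run from 4.31 to 9.24 FPKM, bar heights vary little beside the colours within them. Pclo-202, for one, gives 80.2% of Pclo in Ctrl replicate 1 and 0.92% in Gsk3sKO replicate 1.

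Over the 9 members with several listed transcripts, 6 changed their leading transcript from library to library (Pclo, Rims1, Rims3, Unc13a, Erc1 and Rimbp2), and Bsn, Rims2 and Unc13b kept theirs in all 6 libraries. Of 8969 tested genes with several listed transcripts, 52.5% changed their leader, as did 41.6% of the 2209 with a mean of 20 to 100 FPKM. Of 20 transcript shares compared in the members, 4 did not overlap between the groups (Erc1-203, Rims1-202, Rims3-201 and Rims3-203), beside 9.84% of 14031 shares chosen in the same way over all genes. Of the 28 member transcripts tested, only Rims3-203 had an unadjusted p under 0.05, against 5.56% of all 21584 transcripts tested (1.81% higher and 3.75% lower). After adjustment limma called 0 of the 28 and 0 of all transcripts tested, where an ordinary linear model gave 4 over all transcripts. Groups did not overlap in 4 of the 28, Pclo-204, Rims1-206 and Rims3-203 being higher and Rims1-202 lower in Gsk3sKO, beside 11.2% of all transcripts tested (4.28% higher and 6.96% lower). The median standard error of the log2 fold change was 0.69 for member transcripts and 0.49 for all transcripts tested.

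**Figure D4:**
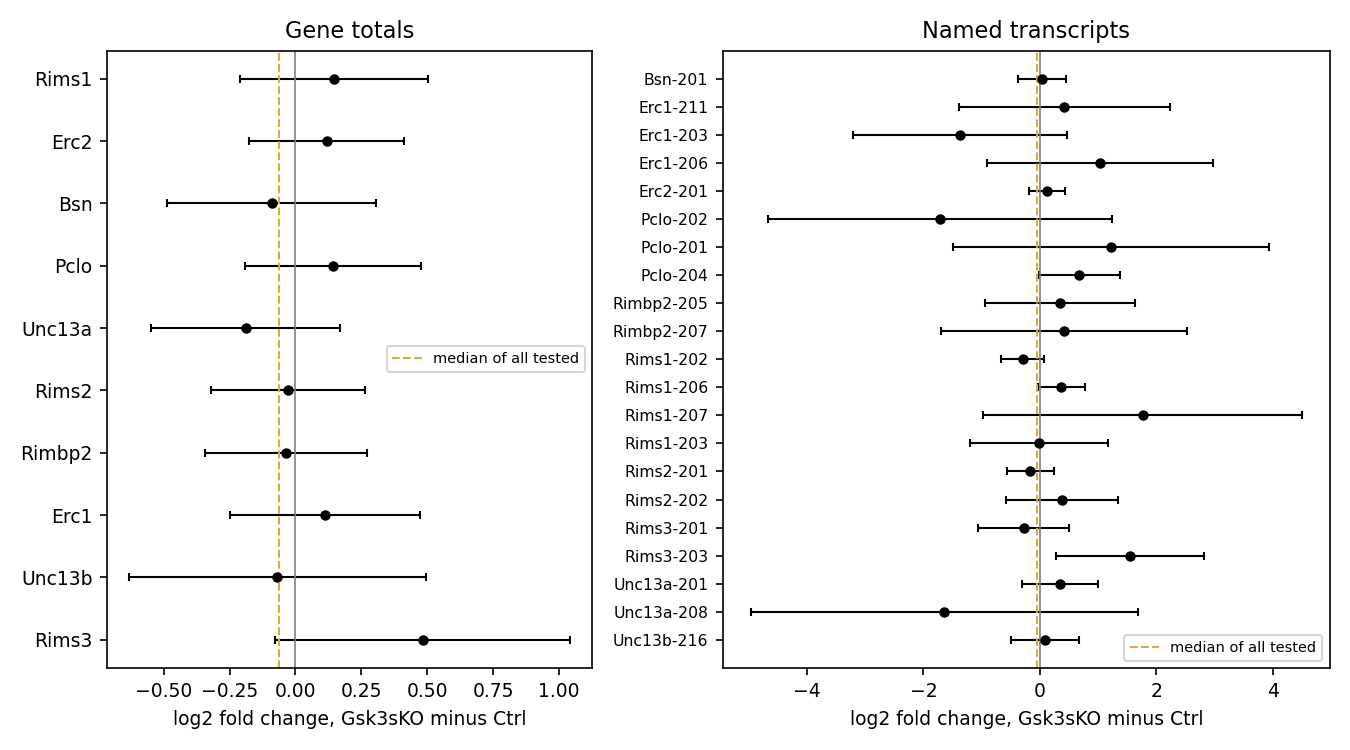
Log2 fold changes on log2(FPKM + 1), Gsk3sKO minus Ctrl, with 95% limma intervals for the 10 gene totals (left) and for the 21 named transcripts (right, on a wider axis); dashed lines mark the median over all gene totals or transcripts tested. The interval of each gene total includes 0, and among the transcripts that of Rims3-203 alone does not.

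Ratios within the gene pairs, which do not depend on library scaling, also overlapped between the groups. Bsn to Pclo was 1.24 ± 0.25 in Ctrl and 1.07 ± 0.34 in Gsk3sKO (SD, n = 3, exact permutation p = 0.4). Rims1 to Rims2 was 1.91 ± 0.13 and 2.17 ± 0.22 (exact permutation p = 0.2), and Erc2 to Erc1 was 2.32 ± 0.14 and 2.35 ± 0.34 (exact permutation p = 1). Unc13a exceeded Unc13b in every library, by a ratio of 5.05 ± 0.50 in Ctrl and 4.79 ± 1.45 in Gsk3sKO (exact permutation p = 0.8), and by 9.46 and 10.6 with length-weighted totals. These 4 pairs were the family compared, and no p can fall below 0.1.

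The genes around the scaffolds were read from hand-written lists. Of 24 tested genes among the other active zone scaffolds and adaptors, such as liprins, Cask and Lin7 proteins, 2 were lower at an unadjusted p under 0.05 and 0 higher, where 5.2% of all gene totals were lower and 1.36% higher. These were Rabac1, whose product binds Rab3 and Piccolo, at 27.9, 28.6 and 22.2 FPKM in Ctrl and 17.7, 19.7 and 16.1 FPKM in Gsk3sKO (log2 fold change -0.53, unadjusted p = 0.0116, adjusted p = 0.671), and Lin7b, a partner of Cask (log2 fold change -0.41, adjusted p = 0.752). The list's median log2 fold change was -0.04. Its gene with the highest level, Git1, an adaptor that binds Piccolo, was at 73.9 ± 11.6 FPKM in Ctrl and 87.7 ± 9.98 FPKM in Gsk3sKO (SD, n = 3).

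Of 23 partners of RIM and Munc13 and priming factors, 1 was higher and 0 lower, with a list median of 0.10. It was Rab27b, a vesicle GTPase, at 8.12, 11.0 and 12.6 FPKM in Ctrl and 11.8, 20.3 and 18.2 FPKM in Gsk3sKO (log2 fold change 0.61, unadjusted p = 0.0378, adjusted p = 0.750). Snap25, the SNARE protein with the highest level of the list, was at 1091 ± 45.8 FPKM in Ctrl and 1080 ± 77.6 FPKM in Gsk3sKO (SD, n = 3). Of 19 synaptic vesicle proteins, 2 were lower and 0 higher, with a median of -0.10. Syn2, for synapsin II, which holds vesicles in the reserve cluster, was at 121, 128 and 135 FPKM in Ctrl and 97.5, 83.4 and 85.6 FPKM in Gsk3sKO (log2 fold change -0.52, unadjusted p = 0.00288, adjusted p = 0.488). Syp, for synaptophysin, the highest of these, was at 526 ± 12.9 FPKM and 534 ± 21.9 FPKM (SD, n = 3), and Sncb, for β-synuclein, had a log2 fold change of -0.33 (adjusted p = 0.755). Of 6 presynaptic adhesion proteins, 1 was lower and 0 higher, namely Nrxn2, for neurexin-2 (log2 fold change -0.32, adjusted p = 0.750), with a median of -0.03. The highest of these was the receptor phosphatase gene Ptprs, at 98.3 ± 7.999 FPKM and 95.2 ± 15.02 FPKM (SD, n = 3). None of the 72 genes tested in these lists passed the adjusted threshold.

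Averaged over the 10 members, the centred log2 level moved by little, with -0.13, 0.01 and 0.03 across the Ctrl libraries and -0.02, 0.07 and 0.03 across the Gsk3sKO libraries. Ctrl replicate 1 was the lowest library, as it was for Drd2, and its part in the results was not tested beyond leaving it out. The members did not follow a common course, since the correlation of each with the mean of the other 9 over the 6 libraries ran from -0.29 (Bsn) to 0.63 (Rims1). Of 5844 other genes with a mean of at least 10 FPKM, 88 had a Pearson r of at least 0.9 with the members' mean over these 6 libraries, which share depth and preparation. The 5 closest were Pqbp1 (r = 0.993), Sphkap (r = 0.990), Robo2 (r = 0.974), Htt (r = 0.973) and Smap1 (r = 0.973).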

How the data were processed

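RNAseq of RiboTag-immunoprecipitated RNA from mPFC D2 neurons was available for 3 Ctrl and 3 Gsk3sKO libraries. The authors deposited FPKM values per transcript and library. The submitters' processing notes list HISAT2 2.1.0, SAMtools 1.9, StringTie 1.3.4d and GRCm38, and the sources used here give no settings for them. StringTie estimates how fragments divide between overlapping transcripts, so 1 transcript of a gene can gain what another loses. The authors' own fold, p-value and q-value columns, which compare the groups, were not used.

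Transcripts were matched by ID to GENCODE M21 (114237 matched, 983 not), and FPKM were summed by gene ID. Groups and replicate numbers came from the sample titles. The groups were compared in R 4.3.3 with limma 3.58.1 (lmFit, eBayes with trend, 2-sided) on log2(FPKM + 1) for features with a mean of at least 1 FPKM, without covariates, and adjusted by the Benjamini-Hochberg method over all features tested. The model was tested on simulated data. Shares and ratios were compared with exact permutation tests. The spacing of low values gave an estimate of depth. Other steps used Python 3.11.15, pandas 2.3.3, scipy 1.17.1 and matplotlib 3.10.9.

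The members and gene lists were chosen with earlier results of these data known. Named were the 10 members, each member's most abundant transcript, further transcripts with a mean of at least 1 FPKM and either 10% of the gene total or an unadjusted p under 0.05, listed partner genes with an unadjusted p under 0.05 or the highest level of their list, the 5 genes most correlated with the members, and Gsk3b. Bsn-202, outside this rule, was named after its values were seen. Tspoap1 was found by its gene ID, since the deposited table uses an older symbol. The alternatives tried were another pseudocount, no filter or a stricter one, median-ratio scaling, an ordinary linear model, the replicate number as a block, coding transcripts alone, each library left out in turn and, chosen after seeing the data, length-weighted gene totals. In each same-numbered pair, deviations from the group means correlated at -0.03, -0.01 and -0.08.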

Additional observations from a re-analysis of the deposited data

How the results depend on the processing

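The number of member gene totals with an unadjusted p under 0.05 remained 0 with every alternative that kept all 6 libraries, and was 0 to 1 when a library was left out (Unc13a without Ctrl replicate 1, Rims3 without Gsk3sKO replicate 3). The count of member transcripts was 1 of 28 in the main fit, beside 5.56% of all transcripts tested. It was 4 of 59 without a filter (2.75% of all) and 0 of 18 at a mean of at least 5 FPKM (6.11%). Median-ratio scaling gave 2 of 28 (5.28%) and an ordinary linear model 3 of 28 (5.10%). When a library was left out it was 0 to 4 of 27 or 28, beside 4.10% to 7.96% of all. Under median-ratio scaling the median over all gene totals was 0.00 in place of -0.06, and log2 fold changes were 0.036 for Rims2, 0.028 for Rimbp2 and 0.025 for Rims1-203, each opposite in sign. With coding transcripts alone Rims3 was at -0.085 and Erc1 at -0.36 (limma unadjusted p = 0.637 for Erc1). Length-weighted totals, added after seeing the data, put Erc1 at -0.014, Rimbp2 at 0.035, Unc13a at -0.023 and the Gsk3b gene total at -0.56.

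With a library left out, log2 fold changes ran from -0.23 to 0.045 for Bsn, -0.099 to 0.0048 for Rimbp2, -0.067 to 0.019 for Rims2, -0.25 to 0.10 for Unc13b, -0.10 to 0.17 for Bsn-201, -0.41 to 0.87 for Erc1-211, -0.088 to 0.80 for Rimbp2-205, -0.21 to 1.19 for Rimbp2-207, -0.41 to 0.49 for Rims1-203, -0.076 to 0.63 for Rims2-202, -0.026 to 0.16 for Unc13b-216, -0.61 to -0.28 for the Gsk3b gene total and -0.52 to 0.92 for its transcript ENSMUST00000114750. Differences in share ran from -15.4 to 25.2 percentage points for Erc1-211, -0.37 to 25.6 for Rimbp2-205 and -12.7 to 0.43 for Rims2-201.

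Among the lists, the other active zone scaffolds had 1 called gene in place of 2 with median-ratio scaling, the ordinary linear model, the replicate block and coding transcripts alone, and 1 to 3 with a library left out. The RIM and Munc13 partners had 0 in place of 1 without a filter, 2 with median-ratio scaling, the replicate block and coding transcripts alone, and 0 to 2 with a library left out. Synaptic vesicle proteins had 1 in place of 2 without a filter and with median-ratio scaling, and 1 to 2 with a library left out. Presynaptic adhesion proteins had 0 in place of 1 with median-ratio scaling, the replicate block, coding transcripts alone and length-weighted totals, and 0 to 1 with a library left out. The cause of these shifts was not tested. The replicate block left 0 member gene totals and 1 member transcript (Rims3-203) called, with 821 calls in place of 844 over all gene totals, and the numbers were not treated as pairs, since same-numbered libraries did not deviate together. With 3 libraries a group and a standard error near 0.16, differences of a member total inside its interval were not detectable.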

Other observations

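Below a mean of 1 FPKM, outside the main test, 4 of the 37 member transcripts were higher in every Ctrl library than in all 3 Gsk3sKO libraries. The reverse held for 0, and the pattern was looked for after the values were seen. The same share over all transcripts under 1 FPKM was not counted, so the split cannot be read as particular to the members. Over the whole table, 42649, 55841 and 48789 transcripts were above 0 across the Ctrl libraries and 47601, 40787 and 41091 across the Gsk3sKO libraries. Among all transcripts in the main test, 6.96% were lower without overlap and 4.28% higher. Unc13b-215, the longest annotated Unc13b transcript with 41 exons, was at 1.04, 0.42 and 0.74 FPKM across the Ctrl libraries and 0.24, 0.29 and 0.38 FPKM across the Gsk3sKO libraries. Unc13b-209, a retained-intron transcript, was at 0.39, 0.28 and 0.14 FPKM in Ctrl and listed at 0 in Gsk3sKO. Erc1-205, a processed transcript, was at 0.20, 0.06 and 0.16 FPKM in Ctrl and likewise listed at 0 in Gsk3sKO. Unc13a-202, a retained-intron transcript, was at 0.097, 0.099 and 0.12 FPKM in Ctrl and 0.024, 0 and 0.0064 FPKM in Gsk3sKO. In the limma fit without a filter, Unc13b-209, Erc1-205 and Unc13a-202 had an unadjusted p of 0.0181, 0.0175 and 0.0102 and Unc13b-215 of 0.299, each with an adjusted p of 0.742. These 4 were picked because the same values did not overlap, so their p-values are no separate support. In that fit 2.75% of all transcripts tested had an unadjusted p under 0.05, and an exact 0 in such a table can be a failed estimate.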
